A study of Homo sapiens with 8 samples.

Results

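TXNIP, the thioredoxin-interacting protein, was followed together with the thioredoxins TXN and TXN2, their reductases TXNRD1 and TXNRD2, and the peroxiredoxins PRDX1, PRDX2, PRDX3, PRDX4 and PRDX6 in MRC5 cells, a line of normal human lung fibroblasts. The cells had been given 10 µM 8-oxoguanine, the free base form of oxidised guanine, or mock treated with its solvent, in medium with serum. Members were all probe sets annotated with exactly 1 symbol, that of one of these 10 genes: 10 of 8746 probe sets on the 12 h arrays, 1 per gene, and 20 of 22215 on the 6 h arrays, with over 1 probe set for 7 genes. At 12 h there were 3 treated and 3 mock arrays, and at 6 h, on another array type, there was 1 of each. The labels call the 12 h arrays technical replicates, numbered by extract, and do not say whether the extracts were separate cultures. A p-value therefore measures the spread between these extracts alone, which may be technical. The genes were chosen by the 12 h contrast, in which TXNIP had the lowest log2 difference of all probe sets tested, together with the thioredoxin system that TXNIP inhibits. Differences of the 10 genes at 12 h are therefore a description. The fit over all probe sets includes them, and its calls for them are printed as part of that description and support nothing.

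Thioredoxins are small proteins that reduce disulphide bonds in other proteins with a pair of cysteines and are themselves recharged by thioredoxin reductases, selenoproteins that draw on NADPH. Peroxiredoxins break down hydrogen peroxide and are, in most cases, reduced again by thioredoxin. TXNIP is an alpha-arrestin that binds reduced thioredoxin and blocks it, and that also limits glucose uptake. Its transcription is known to rise with glucose through the factors MondoA and MLX, which bind paired sites named carbohydrate response elements, next to CCAAT boxes bound by NF-Y. TXNRD1 and PRDX1 are textbook targets of NRF2, which binds antioxidant response elements.

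The start regions of TXNIP and TXNRD1 are printed because they hold matches to these elements and because these genes stood on opposite sides of 0 at 12 h. TXNRD1 was not called at 12 h, and PRDX4 and PRDX6 also lay above 0. PRDX1, the other NRF2 target named, lay below 0 and had no start region in the reference used. Both printed regions come from RefSeq on GRCh38.p14 and run from 250 bases before to 50 bases after an annotated start. The window of TXNIP, the upstream of its 2 windows, is chr1:145996530-145996829, minus strand. That of TXNRD1, the downstream of its 2 windows, is chr12:104286782-104287081, plus strand. The other TXNIP window held no match. Capitals mark, on either strand, a pair of CACGNG separated by 5 bases of any kind, the CCAAT box CCAAT and the antioxidant response core TGACNNNGC.
TXNIP: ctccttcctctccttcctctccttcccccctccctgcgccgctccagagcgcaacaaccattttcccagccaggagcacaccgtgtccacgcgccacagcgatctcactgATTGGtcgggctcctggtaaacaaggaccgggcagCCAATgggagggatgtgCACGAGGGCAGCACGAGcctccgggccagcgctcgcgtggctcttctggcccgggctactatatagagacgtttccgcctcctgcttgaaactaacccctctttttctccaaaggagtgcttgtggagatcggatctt
TXNRD1: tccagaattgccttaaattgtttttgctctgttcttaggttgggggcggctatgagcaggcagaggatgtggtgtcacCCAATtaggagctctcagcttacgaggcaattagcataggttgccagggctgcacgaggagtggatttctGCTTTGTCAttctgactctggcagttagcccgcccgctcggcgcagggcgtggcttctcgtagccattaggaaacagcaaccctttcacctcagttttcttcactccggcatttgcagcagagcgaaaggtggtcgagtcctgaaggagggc

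In the TXNIP window the paired sites read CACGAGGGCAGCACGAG and began 88 bases upstream of the start, with CCAAT boxes 105 and 140 bases upstream, the latter on the opposite strand. The paired pattern was found in 20 of 34943 RefSeq windows of this length, 0.0572%, the CCAAT box in 34.6% and the antioxidant response core in 13.3%. In the TXNRD1 window that core began 102 bases upstream, on the opposite strand, and a CCAAT box lay 172 bases upstream, so that the CCAAT box was in both printed windows. The TXNRD1 window not printed held that core 99 and 8 bases upstream, the latter on the opposite strand, and a CCAAT box 174 bases upstream. The E-box CACGTG, also searched, was found in a window of PRDX3 and one of PRDX4, and in 7.23% of all windows. Of the 10 genes, 7 had a window in the table (11 windows in all), and among them the paired pattern was in 1 window of TXNIP and the antioxidant core in both windows of TXNRD1. The motifs were chosen after the values were known, and a match of letters is a description and does not show that a factor was bound in these cells.

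At 12 h TXNIP was 10.3-fold lower in treated than in mock cells, while the 8 other genes bright enough to be tested stayed within 1.18-fold of mock. Its probe set gave MAS5 signals of 144, 155 and 164 after treatment, compared with 1511, 1745 and 1498 after mock treatment. Every treated array lay far below every mock array, and the ratio of mock to treated was between 9.12 and 12.1 for the 9 possible pairs of arrays. The log2 difference was -3.36 (SE 0.10, 95% interval -3.59 to -3.13), and the next lowest among the 5248 probe sets tested was -2.44. The treated signals lay near the median of all probe sets on an array, 157 to 165, and above the limit of 93.9 under which probe sets were not tested. In these bulk samples, fewer cells with the transcript and less of it per cell cannot be told apart.

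**Figure D1:**
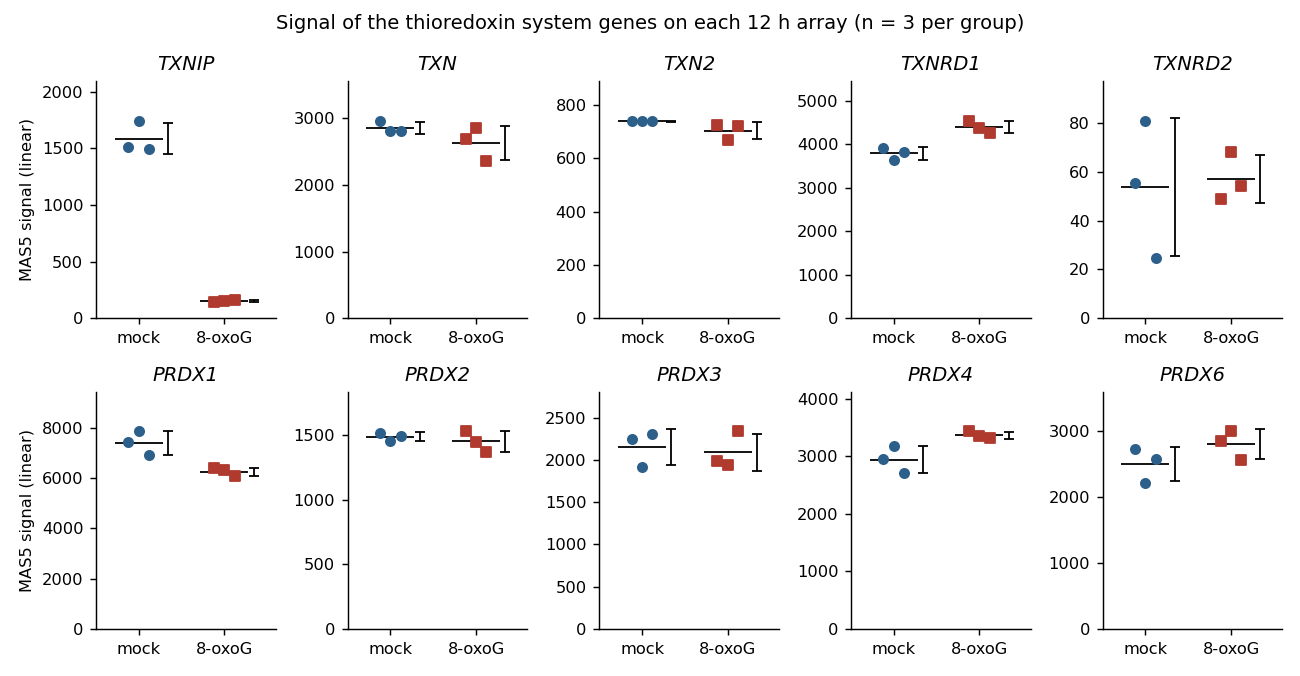
Signal on each 12 h array (y axis, linear, from 0) for the 10 genes in mock (circles) and 8-oxoguanine treated cells (squares); lines are means and bars beside them SD, n = 3. TXNIP sits at 144 to 164 in treated and 1498 to 1745 in mock cells, while the groups of the other genes lie within 1.18-fold of each other in their means.

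TXN, the cytosolic thioredoxin that TXNIP binds, had signals of 2691, 2859 and 2355 in treated and 2967, 2803 and 2811 in mock cells. The groups overlapped through treated replicate 2, and the log2 difference was -0.12 (SE 0.08, 95% interval -0.31 to 0.06). TXN2, the mitochondrial thioredoxin, had 725, 668 and 720 in treated and 742, 738 and 740 in mock cells. Its groups did not overlap, but the gap was small, with a log2 difference of -0.07 (SE 0.08, 95% interval -0.25 to 0.10). Taken as a ratio on the same arrays, TXNIP had a log2 difference of -3.24 against TXN and -3.29 against TXN2, where the log2 ratio of TXNIP to TXN varied by 0.38 among the treated and 0.29 among the mock arrays.

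The reductase of the cytosol, TXNRD1, had the highest log2 difference of the tested members. Its signals were 4545, 4377 and 4267 in treated and 3911, 3632 and 3833 in mock cells. All treated arrays were above all mock arrays, with a log2 difference of 0.21 (SE 0.07, 95% interval 0.07 to 0.36). TXNRD2, the mitochondrial reductase, was too dim to be tested: 49.1, 67.9 and 54.4 in treated and 55.4, 81.0 and 24.5 in mock cells. The groups overlapped widely and the 95% interval of the log2 difference ran from -0.81 to 1.29, too wide to give a direction.

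Of the 5 peroxiredoxins, 3 were lower and 2 higher in treated cells, none by more than 1.18-fold. PRDX1, an abundant peroxidase of cytosol and nucleus, had signals of 6395, 6310 and 6083 in treated and 7444, 7871 and 6922 in mock cells. The treated arrays were all below the mock arrays, with a log2 difference of -0.24 (SE 0.07, 95% interval -0.40 to -0.08). PRDX4, the peroxidase of the endoplasmic reticulum, lay the other way, with 3434, 3351 and 3316 in treated and 2945, 3170 and 2710 in mock cells. Its groups did not overlap either, and the log2 difference was 0.20 (SE 0.07, 95% interval 0.03 to 0.36). The 200 probe sets nearest in signal had a median of 0.05 for PRDX1 and -0.01 for PRDX4.

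PRDX6, which has a single active cysteine and is recharged by glutathione, had 2859, 3003 and 2561 in treated and 2727, 2222 and 2583 in mock cells. These groups overlapped, with a log2 difference of 0.16 (SE 0.09, 95% interval -0.05 to 0.37). PRDX2, abundant in red blood cells and present in most tissues, had 1529, 1448 and 1372 in treated and 1519, 1451 and 1493 in mock cells. PRDX3, the mitochondrial peroxidase that TXN2 recharges, had 1990, 1938 and 2338 in treated and 2241, 1912 and 2306 in mock cells. For both, the treated and mock arrays overlapped, and the log2 differences were -0.04 (95% interval -0.20 to 0.12) and -0.04 (95% interval -0.26 to 0.18). Ordered by their log2 difference, the tested genes ran TXNIP, PRDX1, TXN, TXN2, PRDX3, PRDX2, PRDX6, PRDX4 and TXNRD1. Apart from the gap after TXNIP, the 95% intervals of neighbours in this order overlapped.

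**Figure D2:**
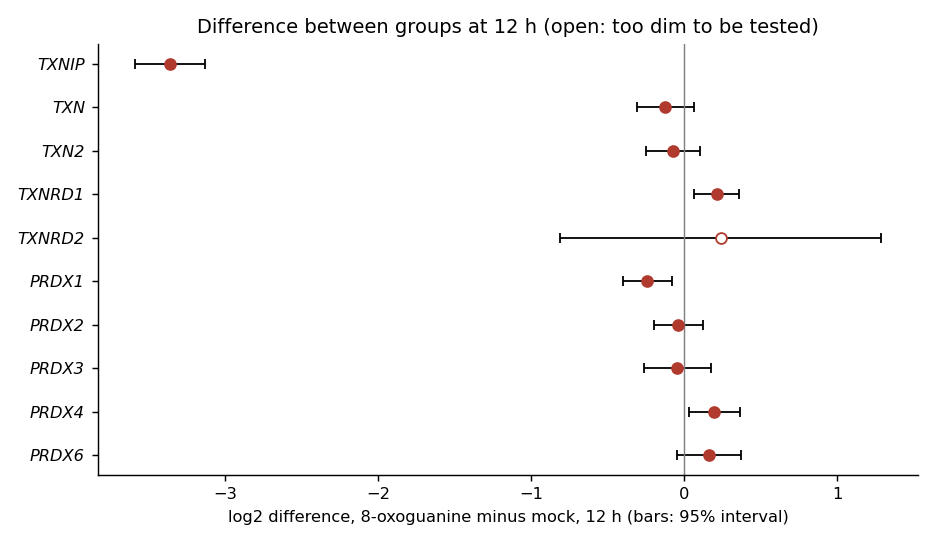
Log2 difference between 8-oxoguanine and mock cells at 12 h (x axis) for each gene (y axis) with its 95% interval from the fit over all probe sets; the open point was too dim to be tested. TXNIP is at -3.36 and the 8 other tested genes lie between -0.24 and 0.21.

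Over all probe sets, 13.2% passed limma's test at an adjusted p under 0.05, and at 33.9% the ranges of treated and mock signals did not overlap. Of the 9 members tested, 1 passed, TXNIP, and 5 did not overlap, TXNIP, PRDX1 and TXN2 being lower and TXNRD1 and PRDX4 higher. Since this contrast chose the genes, nothing is read from these counts. The count of passing members was 3 with quantile normalization and with a stricter filter, PRDX1 and TXNRD1 being added, 2 with median centring, PRDX1 being added, and 2 without mock replicate 2, PRDX4 being added. The median absolute log2 difference was 0.14 for the 8 genes other than TXNIP and 0.17 for all probe sets tested.

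TXNIP did not show at 6 h the low signal seen at 12 h. A single array was run per treatment at 6 h, which leaves these ratios without replicates and untested. The probe set shared by both array types had a signal of 2586 after treatment against 2427 in mock cells (log2 ratio 0.09). The other TXNIP probe sets had 1921 against 1583 (0.28) and 1814 against 1976 (-0.12). The 3 thus lay on both sides of 0. Time, array type and a code in the sample titles changed together and cannot be told apart, and no test compared 6 h with 12 h.

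Among bright probe sets the 6 h ratios increased with signal: the median log2 ratio was -0.07 around a signal of 1220, 0.06 around 2700, 0.37 around 5982 and 0.72 around 9590. Of the 16 member probe sets kept, 8 had a mean signal above 2000, with a median of 0.22, against 0.19 for all 1741 probe sets above it. Of the 16, all at or above the filter limit of 148, 9 had a ratio above 0 as deposited, against 45.6% of all probe sets kept. As deposited 0 passed 1.5-fold, against 8.76%, but PRDX1, at 1.498-fold, passed it with median centring (log2 ratio 0.70). With 16 probe sets and 1 array per treatment, nothing is read from these counts. The median of the 16 was 0.11 as deposited, 0.22 with median centring, 0.01 after quantile normalization and -0.05 after subtraction of a lowess trend. The members as a group had no settled direction at 6 h. Among the 16, 13 lay between the 10th and 90th percentile of the 200 probe sets nearest in signal.

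**Figure D3:**
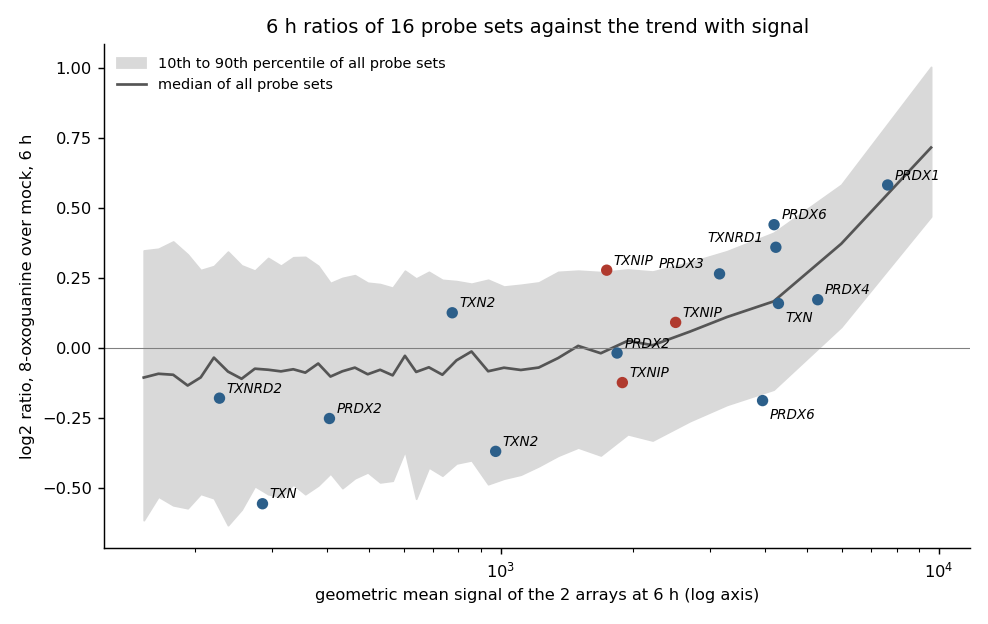
Log2 ratio of treated to mock at 6 h (y axis) against the geometric mean signal of both arrays (x axis, log scale) for the 16 member probe sets kept, TXNIP in red; the line and band are the median and the 10th to 90th percentile of all probe sets kept, in bins. PRDX1, at 0.58, lies close to the line, whose last bin reaches 0.72.

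PRDX1 had the highest 6 h ratio of the members, with a signal of 9344 on the treated and 6237 on the mock array (log2 ratio 0.58). Probe sets of like signal had a median of 0.53, and after quantile normalization its ratio was 0.07. TXNRD1 had 4806 against 3744 (0.36, and 0.21 after quantile normalization), and so lay above 0 at both times in every scaling tried. Its 6 h ratio was nonetheless inside the 10th to 90th percentile of probe sets of like signal, -0.12 to 0.41, whose median was 0.17. PRDX4 had 5613 against 4979 (0.17), which became -0.11 after quantile normalization.

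Probe sets of the same gene disagreed at 6 h for 3 further genes. The main TXN probe set had 4544 against 4068 (0.16), and a dim one had 236 against 346 (-0.56). TXN2 had 856 against 1106 (-0.37) in one probe set and 809 against 741 (0.13) in the other. PRDX6 had 4897 against 3606 (0.44) and 3707 against 4221 (-0.19), the latter being the probe set of the 12 h arrays. In each of these genes the pair of ratios lay on either side of 0. PRDX3 had 3459 against 2878 (0.27) in its bright probe set and, in one under the limit, 122 against 132 (-0.11). PRDX2 had 1830 against 1853 (-0.02) in its brightest and 372 against 443 (-0.25) in its next, with 2 more under the limit. TXNRD2 had 214 against 243 (-0.18) and, under the limit, 44.1 against 44.5 (-0.01). For these genes a ratio at 6 h depended on the probe set read.

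**Figure D4:**
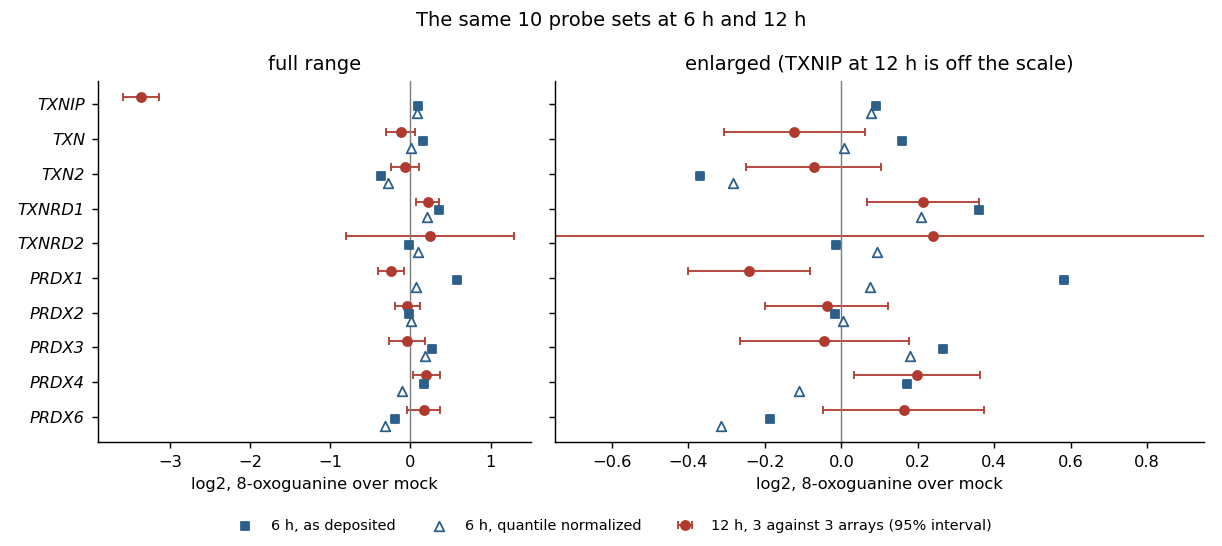
Log2 of 8-oxoguanine over mock (x axis) for the 10 probe sets present on both array types: circles are 12 h with 95% intervals, squares 6 h as deposited, triangles 6 h after quantile normalization; the right panel enlarges the region around 0. TXNIP is at -3.36 at 12 h and 0.09 at 6 h, and the remaining points of both times lie between -0.37 and 0.58.

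The 5 probe sets whose pattern over the 6 arrays of 12 h was nearest to that of TXNIP, measured as the root mean square difference of log2 signals after subtraction of the mock mean, were those of ID3 (0.81), GINS2 (0.89), ID1 (0.91), MMP3 (0.92) and ANGPTL4 (1.12). ID1 and ID3 encode inhibitors of helix-loop-helix factors, GINS2 a part of the replicative helicase, MMP3 a stromal protease and ANGPTL4 a secreted lipase inhibitor. They also had the next lowest log2 differences of this contrast, as this measure implies, at -2.23 (SE 0.11), -2.44 (SE 0.38), -2.09 (SE 0.08), -2.11 (SE 0.22) and -1.86 (SE 0.32). Treated signals of ID3 were 386, 306 and 372 against 1708, 1785 and 1484 in mock cells, and those of ID1 844, 847 and 734 against 3493, 3492 and 3292. The treated signals of GINS2 (115, 93.5 and 34.5), MMP3 (64.5, 103 and 59.3) and ANGPTL4 (52.1, 47.7 and 105) lay mostly under the limit of 93.9. These 3 passed the filter through their mock arrays, so the sizes and order of their differences are uncertain. At 6 h the probe sets of ID3, GINS2, ID1 and MMP3 had log2 ratios of 0.18, 0.03, 0.33 and 0.14, and 0.19, 0.13, 0.27 and 0.13 after quantile normalization. That of ANGPTL4, with signals of 124 and 103, was under the 6 h filter limit.

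Of the 20 genes whose RefSeq window held the paired sites, 7 were on the 12 h arrays. All 7 were tested, TXNIP and 6 others. A match of letters does not show binding at any of these genes, and the role of the sites was not tested. AKAP10, ATP5ME, GFPT1, MYL5 and RAN had log2 differences of -0.08 (SE 0.10), 0.09 (SE 0.08), -0.07 (SE 0.10), 0.05 (SE 0.20) and -0.06 (SE 0.06). P4HA1, a collagen prolyl hydroxylase, passed with -0.28 (SE 0.08, limma adjusted p = 0.0402), but lost its call in 9 of 13 alternatives, among them the fits without any one array but mock replicate 2 (adjusted p 0.00923 to 0.128 over the 6 fits).

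The 6 lists of related genes held 134 genes, of which 75 were tested at 12 h. Of these 75, 5 rose and 8 fell. Over all probe sets 6.59% were called higher and 6.65% lower. Of 28 listed arrestin-domain relatives, regulators and partners of TXNIP, 13 were tested. No arrestin-domain relative was among the 13, and neither was MondoA. Of the 13, 1 fell, 1 rose and 11 did not pass, and the median log2 difference was -0.07, against 0.01 over all probe sets. NFYA, a subunit of the CCAAT-binding NF-Y, fell from 255 ± 14.3 to 181 ± 9.22 (SD, n = 3; log2 difference -0.49, SE 0.13, limma adjusted p = 0.0358), and PRKAB1, a regulatory subunit of AMP-activated kinase, rose from 364 ± 42.8 to 512 ± 8.89 (0.50, SE 0.11, limma adjusted p = 0.0168). The call of NFYA was lost without any one array but mock replicate 2 (adjusted p 0.0611 to 0.119) and with a replicate block (0.0789), and that of PRKAB1 without 8-oxoguanine replicate 1 (0.0587) or 2 (0.0670).

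Of 17 listed genes of glucose uptake and the first steps of glucose use, 10 were tested. Of the 10, 3 fell and none rose, where 6.65% of all probe sets were called lower. Their median was -0.27. HK2, an inducible hexokinase, fell from 556 ± 18.9 to 383 ± 27.1 (SD, n = 3; -0.54, SE 0.10, limma adjusted p = 0.00641), with treated signals of 353, 392 and 405 against 552, 576 and 539. PFKFB3, which makes the activator of phosphofructokinase, fell by 0.58 (SE 0.13), and SLC2A1, the glucose transporter that TXNIP is known to hold back, by 0.30 (SE 0.09), on the log2 scale. The adjusted p of PFKFB3 was 0.0151, but 0.0543 without mock replicate 1 and 0.0614 without 8-oxoguanine replicate 2. That of SLC2A1 was 0.0472, and between 0.0522 and 0.149 without any one array, 0.0611 with quantile normalization and 0.0806 with a replicate block. Without any one array, 1 or 2 genes of this list fell in place of 3, the count being 1 without mock replicate 1 or 8-oxoguanine replicate 2. It was 2 with quantile normalization, no filter, no intensity trend or a replicate block.

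Of 17 listed thioredoxin clients and repair enzymes of peroxiredoxins, 10 were tested. They were MAP3K5, RRM1, RRM2, MSRA, MSRB1, MSRB2, SESN1, NFKB1, APEX1 and HIF1A. Of the 10, 2 fell, 1 rose and 7 did not pass, with a median of -0.01. Both that fell were subunits of ribonucleotide reductase, which thioredoxin recharges and which is also tied to DNA synthesis: RRM2, from 1808 ± 128 to 791 ± 57.3 (SD, n = 3; -1.19, SE 0.09, limma adjusted p = 5.68e-05), and RRM1, from 853 ± 84.7 to 605 ± 14.6 (-0.49, SE 0.09, limma adjusted p = 0.00823). NFKB1, a subunit of NF-kB whose DNA binding needs a reduced cysteine, rose by 0.48 (SE 0.09, limma adjusted p = 0.00697). MAP3K5, or ASK1, a kinase that thioredoxin restrains, did not pass, with 175 ± 18.1 after treatment against 183 ± 10.9 (SD, n = 3).

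Of 29 listed thioredoxin-like proteins and glutaredoxins, 10 were tested, among them the disulphide isomerases P4HB, PDIA3, PDIA4 and PDIA6. Of the 10, none fell and 1 rose, and the median was -0.09. That gene was QSOX1, a secreted sulfhydryl oxidase, from 5645 ± 31.2 to 6821 ± 350 (SD, n = 3; 0.27, SE 0.07, limma adjusted p = 0.0248). Its call was lost without any one array but mock replicate 2 (adjusted p 0.0510 to 0.0943) and with a replicate block (0.0651).

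The glutathione system, with catalase and superoxide dismutases, is the other main route of peroxide and superoxide removal. Of its 22 tested genes 1 rose and none fell by limma's test, with a median of -0.04. SLC7A11, which imports cystine for glutathione synthesis, rose from 932 ± 73.1 to 1271 ± 77.0 (SD, n = 3; 0.45, SE 0.09, limma adjusted p = 0.00880). The other 21 did not pass and lay on both sides of 0, from -0.47 (SE 0.15) for GPX3, the secreted glutathione peroxidase, to 0.30 (SE 0.11) for GCLM, a subunit of the first enzyme of glutathione synthesis. These genes are named, after their values were seen, as the ends of the range. With median centring, quantile normalization, the stricter filter or no intensity trend, 1 gene of this list fell in place of 0.

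Of 14 listed genes that supply NADPH, the electron source of thioredoxin reductase, 11 were tested. Of the 11, 2 fell, 1 rose and 8 did not pass, with a median of -0.06. MTHFD2, of mitochondrial folate metabolism, rose from 1384 ± 133 to 2227 ± 77.7 (SD, n = 3; 0.69, SE 0.08, limma adjusted p = 0.00101). TALDO1, of the pentose phosphate pathway, fell by 0.35 (SE 0.07, limma adjusted p = 0.0105), and MTHFD1, the cytosolic folate enzyme, by 0.34 (SE 0.09, limma adjusted p = 0.0402), on the log2 scale. The call of MTHFD1 was lost without any one array but mock replicate 3 (adjusted p 0.0632 to 0.123) and with a replicate block (0.0756). Without 8-oxoguanine replicate 1, 8-oxoguanine replicate 2 or mock replicate 1, 8, 7 and 8 genes of the lists passed in place of 13.

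**Figure D5:**
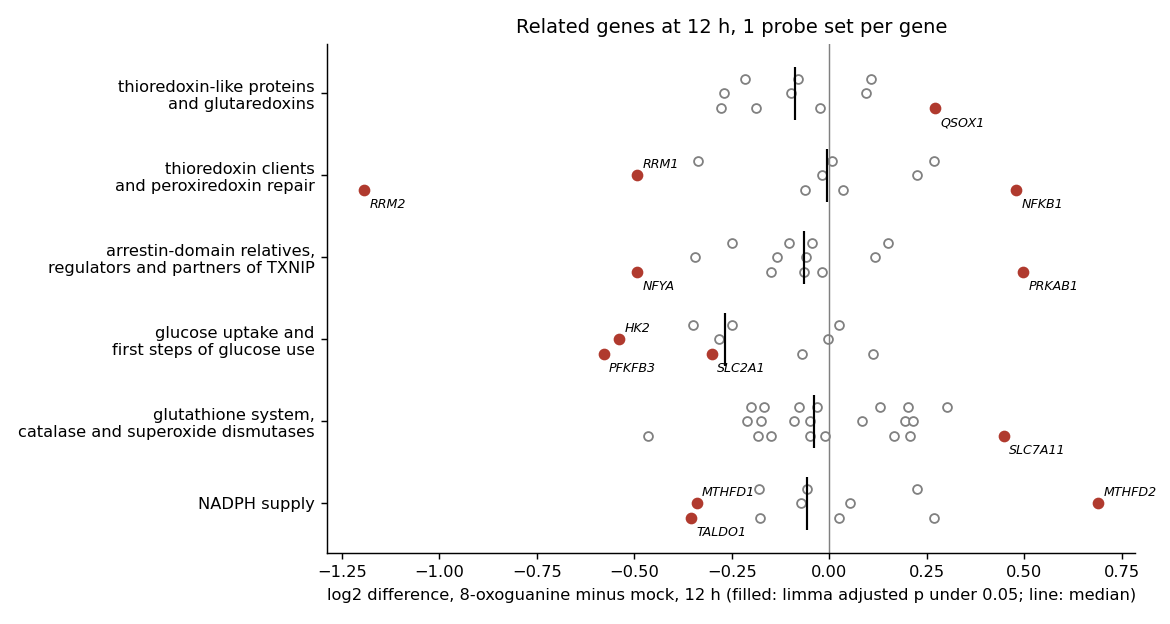
Log2 difference at 12 h (x axis) of the tested genes of the 6 lists (y axis), 1 probe set per gene; filled points passed limma's test, open ones did not, and the short black line is the median of the list. HK2, PFKFB3 and SLC2A1 fell among the genes of glucose use, and RRM2, at -1.19, lies lowest of all.

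At 6 h, the medians of these lists were between -0.03 and 0.11 as deposited, and between 0.01 and 0.13 after quantile normalization. Of the genes that fell at 12 h, HK2 had a log2 ratio of -0.40 (-0.31 after quantile normalization), RRM1 -0.37 (-0.41), PFKFB3 -0.18 (-0.10), MTHFD1 -0.05 (-0.07), SLC2A1 0.01 (0.08), RRM2 0.17 (0.04) and TALDO1 0.24 (0.24), and another probe set of NFYA than the one tested at 12 h had -0.14 (-0.03). Of those that rose at 12 h, QSOX1 had 0.44 (0.01), MTHFD2 0.27 (-0.01), PRKAB1 0.11 (0.21), NFKB1 0.11 (0.20) and SLC7A11 -0.17 (-0.24). The 6 h ratios thus lay on both sides of 0 in both sets. With 1 array per treatment, no call was made from them.

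At 12 h, 11 of 11 markers of fibroblasts, the labelled cell type, were at or above the filter limit. Among them were COL1A1, COL1A2, COL3A1, THY1, PDGFRB and VIM. Their summed signals, 74310 to 88896 in treated and 75224 to 90580 in mock cells, were far above those of the other marker lists. The limit, the 40th percentile, was low, and passing it alone did not mark a cell type. Of 7 epithelial markers, 3 were above it, the keratins KRT8, KRT18 and KRT19, with sums of 4197 to 4532 and 4041 to 4282, while EPCAM and CDH1 were below. Of 5 endothelial markers 1 was above it (PECAM1), and of 4 blood cell markers 2 (CD3E and HBB), with sums that overlapped between the groups (209 to 260 against 235 to 275, and 339 to 420 against 324 to 416). At 6 h, where ratios increased with signal, 12 of 12 fibroblast markers passed the limit, with sums of 106341 on the treated and 59101 on the mock array.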

How the data were processed

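Biotin-labelled cRNA from total RNA was measured on single-colour oligonucleotide arrays. The authors deposited 1 MAS5 intensity per probe set on a linear scale, per the submitters' processing notes; neither its version nor its settings were given there. Trimmed mean signals lay between 490.3 and 494.6 on all arrays. The labels give 12 h for 6 arrays although the treatment protocol names 6 h, and the time label was followed. Gene names came from the platform annotation (1 symbol for 7840 of 8746 probe sets at 12 h and 19064 of 22215 at 6 h); RefSeq of GRCh38.p14 changed none.

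From these, log2 values were computed. Controls and probe sets under the 40th percentile of mean log2 signal were left out at 12 h (5248 tested), and under the 50th at 6 h. Treated and mock arrays of 12 h entered limma 3.58.1 under R 4.3.3 (lmFit, eBayes with intensity trend, two-sided, Benjamini-Hochberg over all probe sets, threshold 0.05), tested on simulated data. For TXNRD2 the fit without a filter gave the interval. Lists used the brightest probe set of a gene. The number of arrays limits the precision. Genes and lists were chosen with earlier results of these data known. Named were all members, up to 4 passing genes per list with the largest differences and the 5 probe sets nearest to TXNIP. Alternatives were median centring, quantile normalization, a lowess trend (6 h), other filters, a constant before log2, no intensity trend, the extract number as a block, gene means and leaving out each array. No pairing of the arrays by extract number was seen in their values.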

Additional observations from a re-analysis of the deposited data

Results flagged for a closer look

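TXNIP and PRDX1 had 12 h arrays that did not overlap between the groups and a 6 h ratio of the opposite sign on the same probe set in every scaling tried. For TXNIP the log2 ratio was 0.092 at 6 h against -3.36 at 12 h. For PRDX1 it was 0.58 at 6 h, 0.07 after quantile normalization, against -0.24 at 12 h. No test compared the times, so this difference was not tested: each 6 h ratio rests on 1 array per treatment of another array type.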

How the results depend on the processing

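The 12 h values of TXNIP, which chose the genes, are given as a description: its log2 difference was -3.40 to -3.29 without any one array, -3.14 with a constant added before log2 and -3.36 with the replicate block. Members passing numbered 2 with median centring, 3 with quantile normalization or the stricter filter, and 1 to 2 without one array, against 1. Probe sets passing numbered 371 to 649 without one array, against 695, and genes of the lists 7 to 12, against 13. The median of the members at 6 h was 0.22 with median centring, 0.0054 with quantile normalization and -0.045 with the lowess trend, against 0.11, and that of the list genes 0.15 with median centring, against 0.04. Of 13 named list genes, 7 kept their call in every alternative they were tested in and 6 lost it in some. Deviations of arrays with the same extract number correlated at 0.08, -0.15 and -0.05, and those of arrays with unlike numbers at -0.18 to 0.20. No pairing by number was seen, which does not show how the extracts were made. With the extract numbers as a replicate block 513 probe sets, 1 member and 9 list genes passed. The signal of TXNRD2, under the filter limit, left its direction unsettled.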
